A study of Mus musculus with 8 samples.

Results

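Oxidative phosphorylation is carried out by 5 protein complexes of the inner mitochondrial membrane, and their subunits are encoded in 2 genomes. The genes described here are the rows of the deposited normalized table whose symbol starts with mt-, together with protein-coding rows whose symbol starts with Ndufa, Ndufb, Ndufc, Ndufs, Ndufv, Uqcr, Cox4 to Cox8 or Atp5, or is Sdha, Sdhb, Sdhc or Sdhd. The rule found 102 genes of the 16418 in the table. Of these, 16 lie on the mitochondrial genome and 86 in the nucleus. The mitochondrial members were 8 mRNAs, 2 ribosomal RNAs and 6 transfer RNAs. The nuclear members were 37 subunits and 8 assembly factors of complex I, 4 subunits of complex II, 8 of complex III, 13 of complex IV and 16 of complex V. These classes follow the gene symbols alone: Ndufa4, counted with complex I, is known as a complex IV subunit, Cox7a2l, counted with complex IV, is known as a supercomplex assembly factor, and Atp5s, counted with complex V, is not a subunit of the enzyme.

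Poly(A) RNA was sequenced from mouse naive T cells, labelled CD3+CD4+CD25-CD44low/-CD62L+ and taken from spleen and lymph node. The 4 libraries labelled KO came from Satb1fl/fl x CD4-CreERT2wt/+ mice given tamoxifen, and the 4 labelled WT from untreated mice of the same genotype. Both groups therefore carried the floxed alleles of Satb1, a chromatin organiser of T cells, and the tamoxifen-inducible Cre driven by CD4 sequences. The groups differed in the drug as well as in the deletion it induces, and these cannot be told apart. The labels used here give no age, sex or count of animals, and nothing says whether libraries came from separate animals, so the p-values measure the spread between these libraries, which may be technical.

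Counted reads per library numbered 7544075 to 9253620 in KO and 5227758 to 21998174 in WT. Satb1 itself had 855, 1032, 839.6 and 913 CPM in the KO libraries, against 987, 1015, 1046 and 1083 CPM in the WT libraries. CPM (counts-per-million) is given after scaling by the trimmed mean of M-values (TMM), and library values stand throughout in the order Sample_2907_KO, Sample_2908_KO, Sample_2909_KO, Sample_2910_KO and Sample_2911_WT, Sample_2913_WT, Sample_2914_WT, Sample_2915_WT. The groups overlapped through Sample_2908_KO, and Satb1 did not pass the test (log2 fold change -0.18, SE 0.059; edgeR quasi-likelihood test, Benjamini-Hochberg adjusted p = 0.0582). A count over the whole gene includes exons outside a deletion, so it does not check the KO labels, and directions below are those of the libraries as labelled.

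Electrons from NADH enter the chain at complex I and those from succinate at complex II, pass through complex III and cytochrome c, and reach oxygen at complex IV. Complexes I, III and IV pump protons as they do so, and complex V, the ATP synthase, lets protons return while it makes ATP. The mitochondrial genome encodes core membrane subunits of complexes I, III, IV and V and the RNAs of the mitochondrial ribosome. It is transcribed as long polycistronic RNAs from both strands that are then processed into single mRNAs, rRNAs and tRNAs. All subunits of complex II and most subunits of the others are nuclear. Resting naive T cells are known to rely largely on oxidative phosphorylation for ATP.

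Several mitochondrial mRNAs could not be read from these counts. The annotation places 37 genes on the mitochondrial genome, 13 of them mRNAs, and 14 of the 37 had 0 reads in all 8 libraries. The 14 were 9 tRNAs and 5 mRNAs, namely mt-Co2 and mt-Co3 of complex IV, mt-Atp6 and mt-Atp8 of complex V and mt-Nd4l of complex I. A sixth mRNA, mt-Nd3 of complex I, had 14 reads over all libraries, 7 in KO and 7 in WT. The nuclear genome holds inserted copies of mitochondrial DNA, and on chromosome 1 the GENCODE M21 annotation of GRCm38 lists 7 such copies between 24611535 and 24616197 on the minus strand, a span of 4663 bases. These 7 copies, named Gm29216, Gm28661, Gm10925, Gm28437, Gm28438, Gm10222 and Gm28439, followed the order of the mitochondrial genes and held 37 reads in all. The first 75 bases of mt-Co2, which is 1 read length, are printed with the same bases of the chromosome 1 copy and of a less similar copy on chromosome 2 to show how far a read could tell them apart. Capitals mark bases that differ from mt-Co2.
mt-Co2: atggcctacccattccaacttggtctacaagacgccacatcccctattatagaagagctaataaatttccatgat
Gm28661: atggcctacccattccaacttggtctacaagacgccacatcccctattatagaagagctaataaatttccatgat
Gm13341: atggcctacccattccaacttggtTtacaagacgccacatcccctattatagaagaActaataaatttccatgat

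In this stretch the chromosome 1 copy had 0 differences from mt-Co2 and the chromosome 2 copy had 2. Gm13341 held 56 reads over all libraries, Gm28661 and the 6 other chromosome 1 copies together the 37 above, and mt-Co2 none. The share of each mitochondrial mRNA that lay inside a nuclear transcript at 99% identity or more was 99.9% for mt-Co3, 99.6% for mt-Co2 and mt-Atp6, 99.1% for mt-Nd3 and 98.99% for mt-Nd4l. It was 63.6% for mt-Nd4, 31.3% for mt-Co1 and 21.1% for mt-Atp8, and 0% for mt-Nd1, mt-Nd2, mt-Nd5, mt-Nd6 and mt-Cytb. The 5 mRNAs with a share near 100% were thus those with 0 or 14 reads, and the 5 with a share of 0% had 42471 to 274728 reads each over the 8 libraries. mt-Atp8 was the exception, with 0 reads at 21.1%, and the rest of it falls between annotated chromosome 1 copies, where no transcript is listed.

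**Figure D1:**
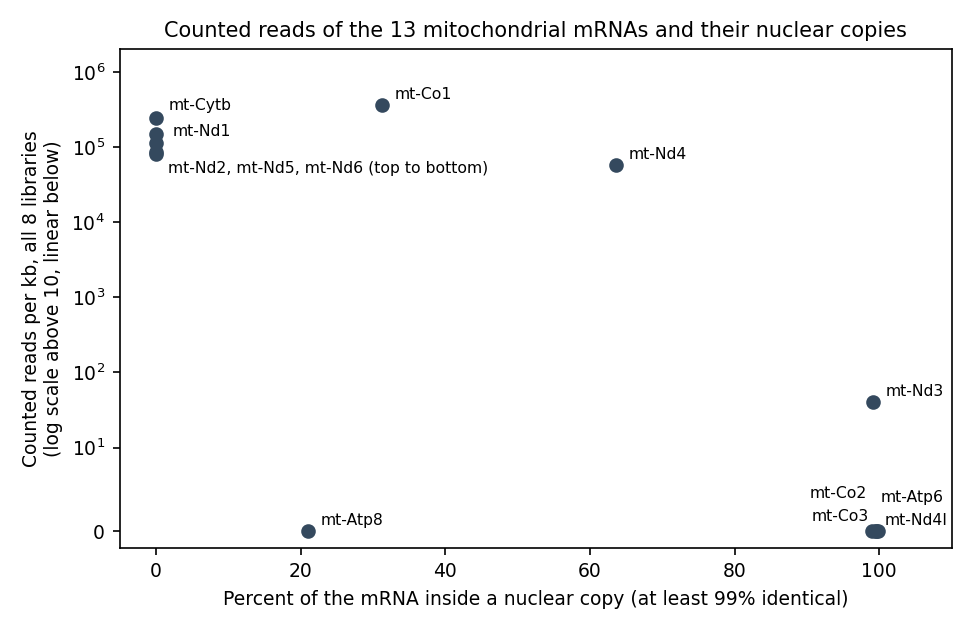
Counted reads per kb summed over the 8 libraries (vertical, logarithmic above 10 and linear below) against the percent of each mitochondrial mRNA that lies in a nuclear transcript at 99% identity or more (horizontal), with 1 point for each of the 13 mRNAs. The 5 mRNAs near 100% and mt-Atp8 lie at 0 or, for mt-Nd3, at 40.2 reads per kb, and the 7 others run from 57239 (mt-Nd4) to 357579 (mt-Co1) reads per kb.

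How reads that match several places were counted is not given in the sources used here, and its part in the reads listed at 0 was not tested. For mt-Nd4 and mt-Co1 the same property touches only a stretch of the gene. Divided by the whole gene, mt-Nd4 had 57239 reads per kb over the libraries, and divided by the 502 bases outside the copy, were all its reads from there, it would have 157122. mt-Co1 had 357579 reads per kb over the whole gene and would have 520207 over the 1062 bases outside the copy. Levels per length of these genes depend on that choice, whereas the comparison of KO with WT libraries uses the same bases in each library. Values for mt-Co2, mt-Co3, mt-Atp6, mt-Atp8, mt-Nd3 and mt-Nd4l say nothing of those mRNAs in either group, so the mitochondrial subunits of complex V are not described and those of complex IV rest on mt-Co1.

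Among the mitochondrial mRNAs that could be measured, mt-Nd5, mt-Nd1 and mt-Cytb were lower in KO libraries and passed the test. All 7 tested had a log2 fold change below 0 (median -0.26, range -0.40 to -0.15), and 0 passed as higher. Over all 11772 genes tested the median was -0.00047, 6.39% passed in either direction and 2.41% passed as lower in KO. All 7 had an unadjusted p under 0.05, against 18.0% of all genes, and in 5 of the 7 every KO library lay below every WT library, against 4.86% of all genes. Genes of 1 transcript unit are not independent, so the count of 7 is not 7 separate observations. In bulk samples, fewer cells of a type and less RNA per cell cannot be told apart.

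mt-Nd5 (GRCm38 chrM:11742-13565, plus strand), a membrane subunit of complex I that takes part in proton pumping, had 1789, 1778, 1500.1 and 1736 CPM in KO libraries, against 1939.6, 2069.6, 2285 and 2335 CPM in WT libraries. All 4 KO values lay below the lowest WT value, and Sample_2909_KO was the lowest. The means were 1701 ± 136 CPM in KO libraries and 2157 ± 185 CPM in WT libraries (SD, n = 4 each), a log2 fold change of -0.34 (SE 0.063; edgeR quasi-likelihood test, adjusted p = 0.000655).

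mt-Nd1 (chrM:2751-3707, plus strand), the complex I subunit beside the ubiquinone site, had 1758, 1638, 1434 and 1627 CPM in KO libraries, against 1827, 1904, 1982 and 2105 CPM in WT libraries. The groups did not overlap. The log2 fold change was -0.28 (SE 0.058; edgeR adjusted p = 0.00219).

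mt-Cytb (chrM:14145-15288, plus strand), the haem-bearing cytochrome b of complex III and its sole mitochondrially encoded subunit, had 3328, 3339, 2703 and 3076 CPM in KO libraries, against 3554, 3496, 3881 and 3821 CPM in WT libraries. The 2 highest KO libraries lay close under the lowest WT library, and Sample_2909_KO stood lower. The log2 fold change was -0.25 (SE 0.059; edgeR adjusted p = 0.00927). This call alone of the 3 was lost when Sample_2911_WT and Sample_2914_WT were left out together (log2 fold change -0.23, edgeR adjusted p = 0.0823).

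The 4 other measured mRNAs did not pass the test, though each passed in 3 or 4 of the 20 alternatives. mt-Co1, the catalytic core of complex IV, had 6940.1, 6885, 5979 and 6605 CPM in KO libraries, against 7305, 7092, 7157 and 7825 CPM in WT libraries, with no overlap and the smallest log2 fold change of the 7 (-0.15, SE 0.053; edgeR adjusted p = 0.0828). mt-Nd2 had 1425, 1369.5, 1085 and 1272 CPM in KO libraries, against 1408, 1452, 1689 and 1631 CPM in WT libraries (log2 fold change -0.26; edgeR adjusted p = 0.0839). mt-Nd4 had 980.3, 930.0, 746 and 919 CPM in KO libraries, against 983, 977, 1128 and 1107 CPM in WT libraries (log2 fold change -0.23; edgeR adjusted p = 0.0824). Both encode membrane subunits of complex I, and each overlapped between the groups by a single KO library, Sample_2907_KO, which lay above the lowest WT value. Both passed with DESeq2 (adjusted p = 0.0159 for mt-Nd2 and 0.0398 for mt-Nd4) and with Sample_2907_KO left out, and mt-Co1 passed with limma-voom (adjusted p = 0.0373).

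mt-Nd6, the one mitochondrial mRNA transcribed from the opposite strand, had 472, 467, 364 and 438 CPM in KO libraries, against 489, 514, 680.3 and 610.4 CPM in WT libraries. The groups did not overlap, yet the WT libraries spread widely, and the log2 fold change of -0.40 had an SE of 0.13 (edgeR adjusted p = 0.148). It passed without Sample_2911_WT (edgeR adjusted p = 0.0396). The last 14 bases of mt-Nd5 and of mt-Nd6 lie over each other on opposite strands. They are printed here, each 5′ to 3′ on its own strand, with no capitals.
mt-Nd5 end: ttaatctcgagtaa
mt-Nd6 end: ttactcgagattaa

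The library kit named in the labels does not keep the strand. Reads of mt-Nd6 and reads from the antisense part of the long transcript of the other strand therefore cannot be told apart, and the overlap of mt-Nd5 with mt-Nd6 is shared by both.

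**Figure D2:**
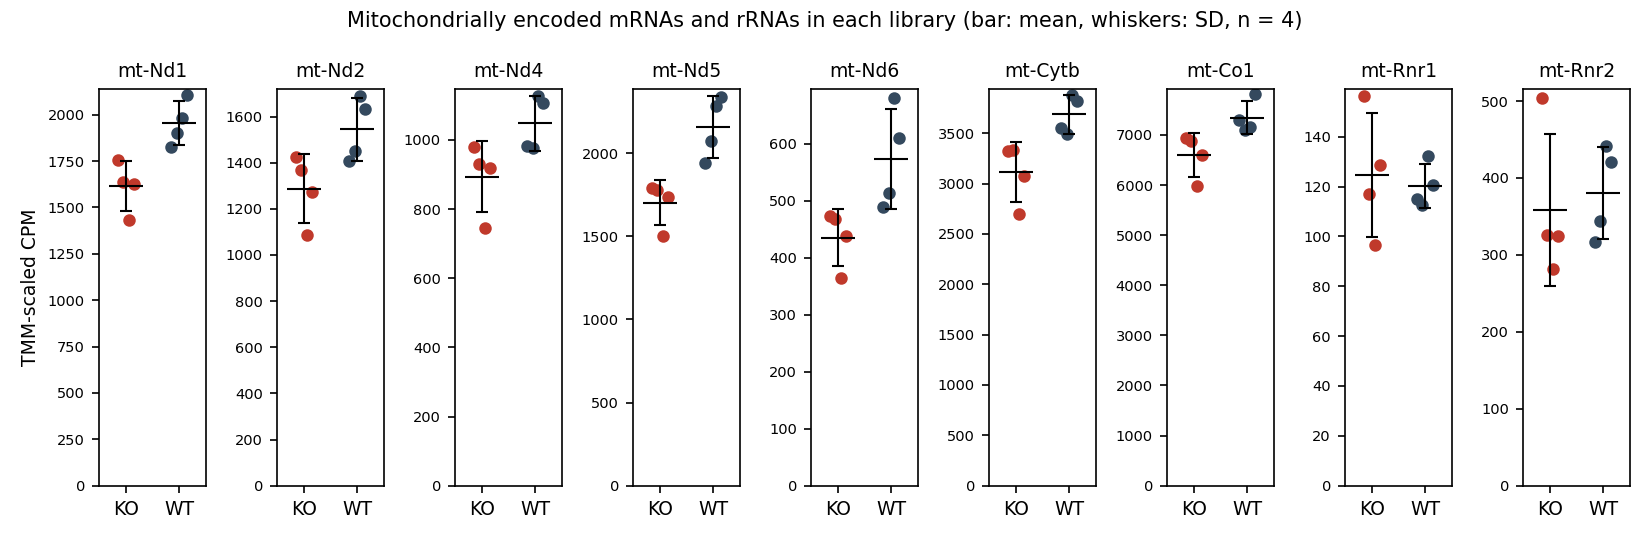
TMM-scaled CPM (vertical, from 0) of 7 mitochondrial mRNAs and 2 rRNAs in the 4 KO libraries (left in each panel) and the 4 WT libraries (right), with horizontal bars for means and whiskers for SD. The KO points lie below all WT points for mt-Nd1, mt-Nd5, mt-Nd6, mt-Cytb and mt-Co1, and the groups overlap for mt-Nd2, mt-Nd4, mt-Rnr1 and mt-Rnr2.

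Markers of the sorted cells and of others were summed in each library. T cell markers summed to 7851 to 8155 CPM in KO libraries and 8281 to 8543 CPM in WT libraries. Of 11 tested, 1 was higher and 4 were lower in KO. Beside this and the marker counts below, 6.39% of all genes tested passed in either direction and 2.41% passed as lower in KO. Markers of regulatory or activated T cells summed to 240.3 to 299 CPM in KO libraries and 151 to 163 CPM in WT libraries, and of 8 tested 2 were higher and 1 was lower in KO. The higher ones were Foxp3, the defining factor of regulatory T cells, at 93.4 ± 27.1 CPM in KO libraries and 8.41 ± 1.197 CPM in WT libraries, and Cd69, an early activation marker, at 110.3 ± 7.94 CPM in KO libraries and 66.2 ± 5.14 CPM in WT libraries. Cd44, a marker of activated and memory T cells, was lower, at 32.4 ± 3.36 CPM in KO libraries and 40.7 ± 3.12 CPM in WT libraries. B cell markers summed to 359.5 to 415 CPM in KO libraries and 446 to 485 CPM in WT libraries. Nearly all of this was Ighm, the IgM heavy chain, which was lower in KO (log2 fold change -0.27, edgeR adjusted p = 0.00132), while Cd79a averaged 2.500 CPM in KO libraries and 2.56 CPM in WT libraries, and Ms4a1 and Pax5 had 0 to 3 reads per group. CD8 and NK markers summed to 52.1 to 58.7 CPM in KO libraries and 60.8 to 65.4 CPM in WT libraries. Most of that sum was Prf1 and Cd8b1, of 3 tested 0 passed, and Cd8a averaged 0.288 CPM in KO libraries and 0.259 CPM in WT libraries. Myeloid markers overlapped, at 9.37 to 15.7 CPM in KO libraries and 1.44 to 28.4 CPM in WT libraries, with 2 of 12 at 0 in every library, and erythroid and platelet markers stayed under 1 CPM in both groups, with 4 of 8 at 0. The part of these differences in the level of the mitochondrial mRNAs was not tested.

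The ratio of mt-Nd5 to mt-Co1 was lower in every KO library than in any WT library, as a description with no test. Since mt-Co1 had the smallest fall of the mRNAs tested, lower mean ratios to it follow from the fold changes above. mt-Nd5 had 25.8, 25.8, 25.1 and 26.3 reads per 100 mt-Co1 reads in KO libraries, against 26.6, 29.2, 31.9 and 29.8 in WT libraries. The mean was 25.7 ± 0.494 in KO and 29.4 ± 2.22 in WT (SD, n = 4 each). For mt-Nd1 the ratio was 24.4 ± 0.697 reads in KO and 26.6 ± 1.13 reads in WT, overlapping between the groups. For mt-Cytb it was 47.1 ± 1.47 reads in KO and 50.3 ± 2.66 reads in WT. The highest KO library stood at 48.5 and the lowest WT library at 48.7, so this ratio too was lower in every KO library, if narrowly. As with mt-Nd1, the groups overlapped for mt-Nd6, at 6.58 ± 0.334 reads in KO and 7.81 ± 1.21 reads in WT. So did those for mt-Nd2, at 19.5 ± 1.02 in KO and 21.0 ± 1.83 in WT, and mt-Nd4, at 13.5 ± 0.732 in KO and 14.3 ± 1.02 in WT. Per length, mt-Co1 was the highest mRNA at 4514 CPM per kb of gene model (mean of 8 libraries), then mt-Cytb at 2972, mt-Nd1 at 1865, mt-Nd2 at 1364, mt-Nd5 at 1058, mt-Nd6 at 972 and mt-Nd4 at 705.

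The mitochondrial rRNAs, which come from the same genome, were not shown to differ. mt-Rnr2, the large ribosomal RNA, had 503.5, 326, 281 and 324 CPM in KO libraries, against 317, 344, 442 and 420.2 CPM in WT libraries. The highest and the lowest of these values were both KO libraries, and the log2 fold change was -0.09 (95% interval -0.61 to 0.43; edgeR adjusted p = 0.888). mt-Rnr1, the small ribosomal RNA, had 156, 117, 96.5 and 129 CPM in KO libraries, against 115, 113, 132 and 121 CPM in WT libraries (log2 fold change 0.04, 95% interval -0.28 to 0.36; edgeR adjusted p = 0.927). The interval of mt-Rnr2 includes the fold changes of all 7 mRNAs, so a fall of their size was not detectable for it in these libraries. The interval of mt-Rnr1 includes those of 5 of the 7 and leaves out those of mt-Nd5 and mt-Nd6. As background, these rRNAs carry short tails or none, and the libraries were made from poly(A) RNA. There were 33.4 mRNA reads per rRNA read in KO (SD 5.48) and 36.9 in WT (SD 3.34).

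Of the 6 tRNA members, mt-Tc and mt-Tp, the tRNAs for cysteine and proline, had enough reads for the test. mt-Tc averaged 6.04 ± 1.26 CPM in KO libraries and 5.65 ± 0.939 CPM in WT libraries, and mt-Tp averaged 8.71 ± 2.04 CPM in KO libraries and 8.11 ± 1.27 CPM in WT libraries (SD, n = 4 each). Their log2 fold changes were 0.08 and 0.09 (edgeR adjusted p = 0.909 and 0.867). The genes span 66 bases for mt-Tc and 67 for mt-Tp, so a full read of 75 bases reaches beyond either. Both lie on the minus strand, and the kit does not keep the strand. Their reads therefore cannot be told apart from those of the long transcript of the other strand, and need not be levels of the tRNAs. The same holds for mt-Ta, mt-Te and mt-Tn below. The 4 others, mt-Tl1, mt-Ta, mt-Te and mt-Tn, were too low for the filter. mt-Tl1, a tRNA for leucine, had 2, 5, 2 and 2 reads in KO libraries, against 0, 6, 85 and 8 reads in WT libraries. mt-Ta, for alanine, had 0, 0, 1 and 1 reads in KO libraries, against 2, 0, 38 and 1 reads in WT libraries, and mt-Te, for glutamate, had 2, 0, 0 and 0 reads in KO libraries, against 0, 0, 22 and 0 reads in WT libraries. The reads of these 3 tRNAs lay mostly in 1 library, Sample_2914_WT, which is also the deepest. Scaled for depth, that library had 3.79 CPM of mt-Tl1, against 0 to 1.08 CPM in all other libraries, so the group difference in these tRNAs is that of a single library. mt-Tn, for asparagine, did not show this, with 1, 7, 0 and 7 reads in KO libraries, against 0, 5, 10 and 5 reads in WT libraries.

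As shares of all counted reads, the 8 mitochondrial mRNAs took 1.65, 1.63, 1.38 and 1.55% in KO libraries, against 1.74, 1.74, 1.92 and 1.95% in WT libraries. No KO library reached the lowest WT library. The highest shares were those of Sample_2914_WT and Sample_2915_WT, which are also the deepest libraries, and no alternative left out both. The means were 1.55 ± 0.123% in KO and 1.84 ± 0.114% in WT (SD, n = 4 each), a ratio of 0.846. The 86 nuclear members took 0.507, 0.497, 0.554 and 0.508% in KO libraries, against 0.523, 0.536, 0.521 and 0.522% in WT libraries. These overlapped, since Sample_2909_KO had the highest nuclear share of all 8 libraries, and the ratio of the means was 0.984. Per nuclear read there were 3.02 ± 0.366 mitochondrial mRNA reads in KO and 3.498 ± 0.249 in WT. The groups overlapped in this ratio, with 3.28 in the highest KO library, Sample_2908_KO, and 3.25 in the lowest WT library, Sample_2913_WT.

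**Figure D3:**
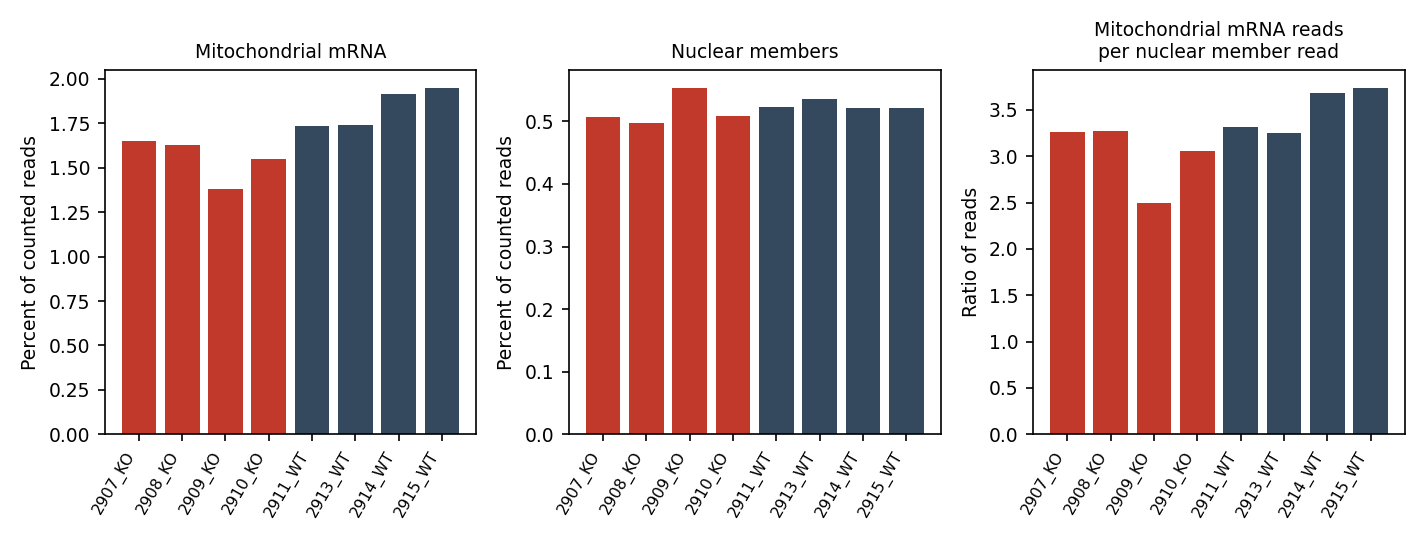
Percent of counted reads on the mitochondrial mRNAs (left) and on the nuclear members (middle), and mitochondrial mRNA reads per nuclear member read (right), as 1 bar per library, with the 4 KO libraries left of the 4 WT libraries. The mitochondrial share runs from 1.38 to 1.65% in KO and from 1.74 to 1.95% in WT, while the nuclear share lies between 0.497 and 0.554% in all libraries.

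Against the mean of the other libraries of its group, each of the 8 libraries had medians of opposite sign in the 2 sets. In Sample_2914_WT, for example, the mitochondrial mRNAs lay 0.12 above on the log2 scale and the nuclear members 0.06 below. Sample_2909_KO had the largest difference in both sets. Its mitochondrial mRNAs lay a median of 0.26 on the log2 scale below the mean of the other KO libraries, and its nuclear members a median of 0.12 above. It was the highest KO library for 51 of the 84 nuclear members tested, against 27.3% of all genes tested. Sample_2908_KO was the lowest KO library for 33 of the 84, against 26.4% of all genes. Sample_2914_WT was the lowest WT library for 34 of the 84, against 21.7%. With Sample_2909_KO left out, mt-Nd5, mt-Nd1 and mt-Cytb still passed the test, and the median log2 fold change of the 7 mRNAs was -0.19.

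The nuclear members showed no change that passed the test. Of 86, 84 had enough reads to be tested and 0 passed with edgeR, 0 with DESeq2 and 0 with limma-voom, methods that called 6.39%, 6.02% and 6.91% of the genes they tested. At an unadjusted p under 0.05 there were 4 of 84 nuclear members, against 18.0% of all genes. Their log2 fold changes had a median of 0.0046 and ran from -0.21 to 0.24, with 43 above 0 and 41 below. Every KO library was below every WT library for 1 member, Ndufa10, against 4.86% of all genes, and above for 1 member, Ndufv1, against 6.23%. The 95% intervals of 79 of the 84 lay within 1.5-fold in either direction, and those of 38 lay within 1.2-fold. The 5 with wider intervals were Ndufaf2, Ndufaf6, Ndufb4, Ndufs5 and Atp5g2.

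**Figure D4:**
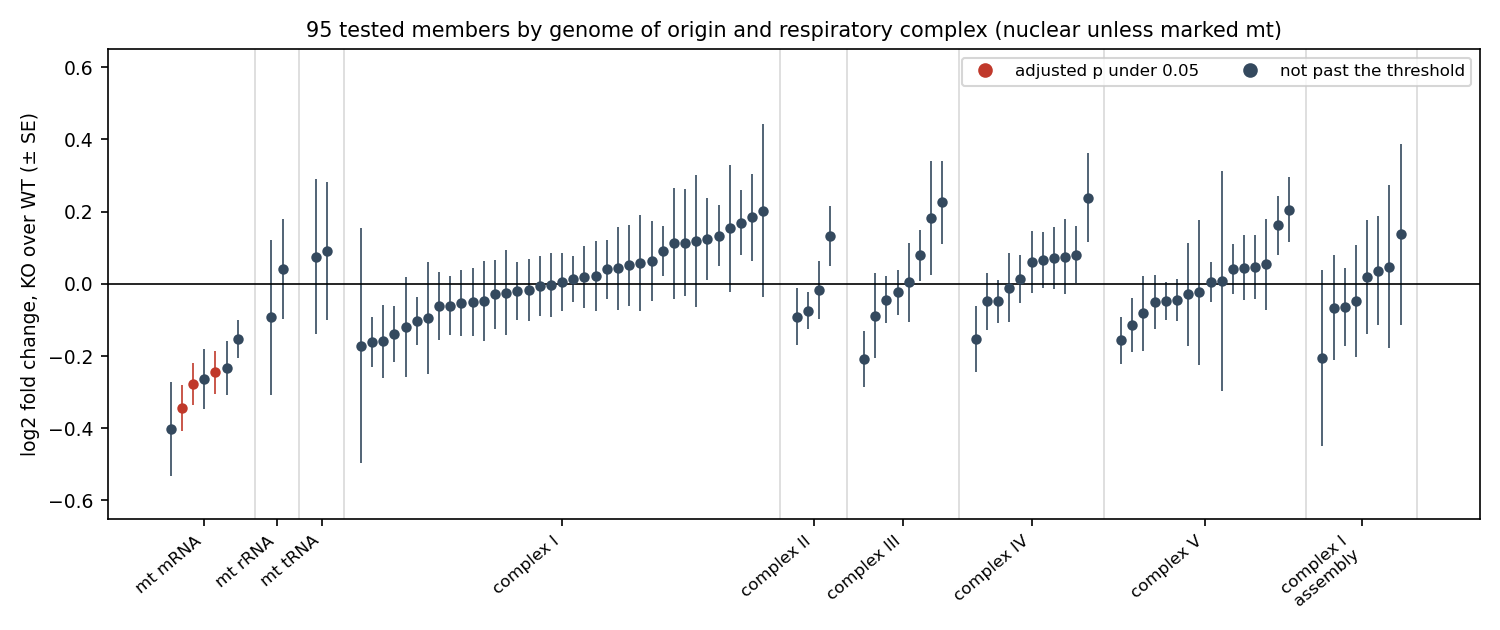
Log2 fold change of KO over WT (vertical, with SE) for the 95 members tested, ordered by size within mitochondrial mRNAs, rRNAs and tRNAs and within the nuclear members of each complex. The 3 red points past the threshold are mt-Nd5, mt-Nd1 and mt-Cytb, and all 84 nuclear points lie within 0.25 of 0.

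Complex I, where NADH is oxidised, had 37 nuclear subunits with a median log2 fold change of 0.01 and a range from -0.17 to 0.20. Ndufs1, an iron-sulphur subunit of the arm that carries electrons from NADH, had the lowest p of them, with 78.4, 80.4, 83.9 and 73.0 CPM in KO libraries, against 84.5, 81.5, 94.8 and 90.2 CPM in WT libraries. Its groups overlapped through Sample_2909_KO, and its log2 fold change was -0.16 (SE 0.070; edgeR adjusted p = 0.198). Ndufv1, the subunit that binds NADH, had 63.1, 61.7, 63.2 and 64.2 CPM in KO libraries, against 59.6, 60.9, 57.6 and 59.2 CPM in WT libraries. This is the subunit whose groups did not overlap with KO higher, at 0.09 on the log2 scale (edgeR adjusted p = 0.553). Ndufa10, an accessory subunit, averaged 77.8 ± 1.74 CPM in KO libraries and 83.5 ± 3.64 CPM in WT libraries, without overlap and at -0.10 on the log2 scale (edgeR adjusted p = 0.447). The highest level per length in the complex was that of the accessory subunit Ndufa2, at 73.3 CPM per kb. It averaged 41.2 ± 4.03 CPM in KO libraries and 42.6 ± 4.89 CPM in WT libraries. Length here is that of all annotated exons of a gene merged, which can exceed any single transcript. Ranks per length among nuclear members depend on that choice. The largest and smallest fold changes belonged to low genes, Ndufs5 at 5.31 CPM in KO libraries and 4.83 CPM in WT libraries (0.20, SE 0.24) and Ndufb4 at 2.52 CPM in KO libraries and 2.89 CPM in WT libraries (-0.17, SE 0.33).

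The 8 assembly factors of complex I, which help build it and are not part of the finished complex, had a median log2 fold change of -0.01 and were low. The highest per length was Ndufaf8, at 10.4 CPM per kb, with 8.92 ± 3.20 CPM in KO libraries and 8.41 ± 1.63 CPM in WT libraries. Ndufaf2 had the lowest fold change (-0.21, SE 0.24) and Ndufaf6 the highest (0.14, SE 0.25), both well within their errors.

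Complex II, succinate dehydrogenase, is also an enzyme of the citric acid cycle and is the complex with no mitochondrially encoded subunit. Sdha, its flavoprotein, was its highest gene at 64.9 CPM per kb and one of the most precisely measured members, with 261.0 ± 8.76 CPM in KO libraries and 275 ± 4.72 CPM in WT libraries (log2 fold change -0.07, SE 0.052; edgeR adjusted p = 0.504). Sdhb, the iron-sulphur subunit, had a log2 fold change of -0.09, Sdhc, a membrane anchor, -0.02, and Sdhd, the other anchor, 0.13 (SE 0.083; edgeR adjusted p = 0.432).

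Complex III passes electrons to cytochrome c. Uqcrfs1, its Rieske iron-sulphur protein, had 61.7, 51.6, 55.5 and 52.2 CPM in KO libraries, against 66.4, 65.2, 64.9 and 59.3 CPM in WT libraries. The groups overlapped by Sample_2907_KO alone. This was the lowest p of all nuclear members, with a log2 fold change of -0.21 (SE 0.077; edgeR adjusted p = 0.119). Uqcrb, a small subunit near the ubiquinone site, had the highest fold change of the complex, at 23.6 ± 2.38 CPM in KO libraries and 20.2 ± 1.42 CPM in WT libraries (0.23, SE 0.11; edgeR adjusted p = 0.296). Uqcrh, the hinge protein, was the most abundant per length at 103 CPM per kb and averaged 125 ± 6.40 CPM in KO libraries and 129.7 ± 9.996 CPM in WT libraries.

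Complex IV, cytochrome c oxidase, had a median of 0.06 over the nuclear genes counted with it, and 7 of 11 tested lay above 0. Cox7c, a small membrane subunit, had 28.2, 27.8, 32.0 and 32.4 CPM in KO libraries, against 29.7, 31.2, 19.7 and 24.8 CPM in WT libraries. Sample_2914_WT was the low library, and the log2 fold change of 0.24 did not pass the test (SE 0.12; edgeR adjusted p = 0.303) and was 0.09 without that library and 0.14 with every library thinned to the smallest. Cox7a2, the main form of subunit VIIa outside muscle, had the lowest, -0.15 (SE 0.092; edgeR adjusted p = 0.414). Cox6a1, the form of subunit VIa found outside heart and skeletal muscle, was highest per length at 113 CPM per kb, with 80.9 ± 9.85 CPM in KO libraries and 77.5 ± 2.58 CPM in WT libraries.

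Complex V had 16 nuclear members with a median of -0.01. Per kb of exon model, Atp5a1, the alpha subunit of the catalytic head, was the highest nuclear member at 155 CPM. Atp5b, its catalytic beta partner, followed at 133. The Atp5b model has 4237 bases against 1916 in its longest coding transcript, and that of Atp5a1 3135 against 2674. Over those transcripts Atp5b would be the higher. Atp5a1 averaged 479 ± 22.3 CPM in KO libraries and 495 ± 16.8 CPM in WT libraries, and Atp5b averaged 565 ± 35.8 CPM in KO libraries and 563 ± 29.1 CPM in WT libraries, the most reads of any nuclear member. Atp5h, a subunit of the stalk that holds the head still, had 108, 118, 113 and 107 CPM in KO libraries, against 112, 102, 76.7 and 101 CPM in WT libraries. Its log2 fold change of 0.21 did not pass the test (SE 0.089; edgeR adjusted p = 0.217) and was 0.09 without Sample_2914_WT. Atp5g3, which encodes the rotor subunit c, had 97.8, 106, 112 and 105 CPM in KO libraries, against 114, 128, 119 and 109.8 CPM in WT libraries, overlapping through Sample_2909_KO (log2 fold change -0.16, SE 0.065; edgeR adjusted p = 0.176).

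**Figure D5:**
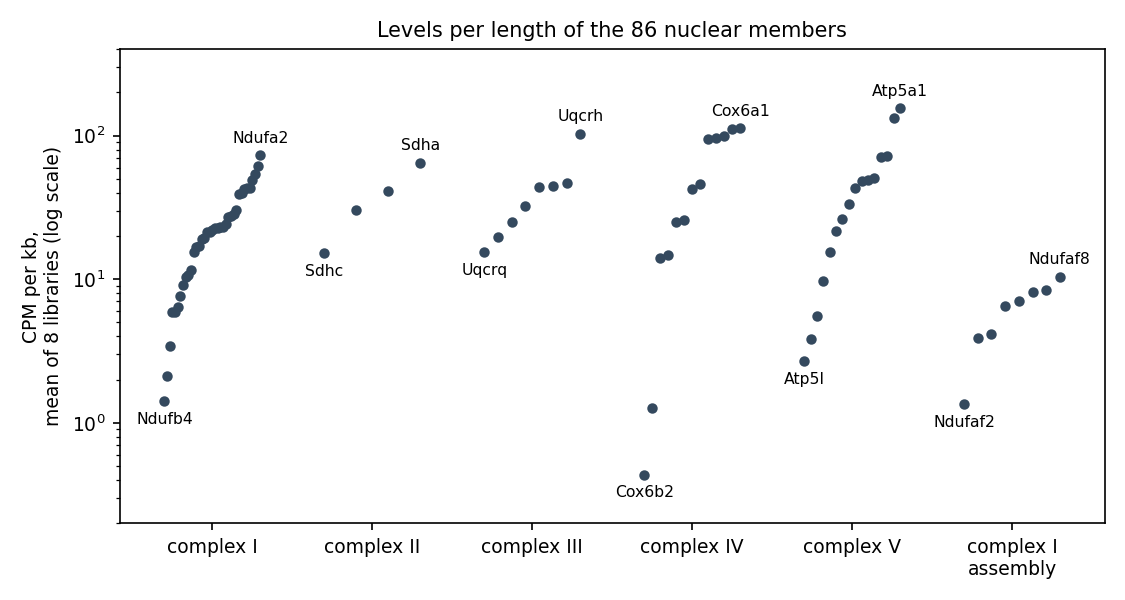
CPM per kb (vertical, log scale, mean of the 8 libraries) of the 86 nuclear members by complex, 1 point per gene in rising order, with the highest and lowest gene of each complex named. Per kb of exon model, Atp5a1 is the highest at 155, and complex I assembly factors stay at or below 10.4.

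Where a subunit is encoded by several genes, the forms known from muscle, testis, lung or other specialised tissues were at or near 0. Over all 8 libraries Cox4i2 had 1 read against 12194 for Cox4i1, Cox6a2 had 3 against 6188 for Cox6a1, Cox8b had 1 and Cox8c 0 against 4578 for Cox8a, Cox7b2 had 0 against 4455 for Cox7b, and Ndufa4l2 had 1 against 4650 for Ndufa4. These 6 minor forms fell outside the normalized table. A pair of minor forms inside it had too few reads for the test: Cox6b2, with 20 reads in KO and 20 in WT, and Cox7a1, with 23 in KO and 32 in WT.

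The division between forms differed between the groups by less than the SD among WT libraries for each gene named here. Of the summed level per kb of the Cox7a family, Cox7a2l, a supercomplex assembly factor related to that subunit, made up 72.8 ± 1.70% in KO and 70.7 ± 3.44% in WT. Cox7a2 made up 26.4 ± 1.90% in KO and 28.5 ± 3.38% in WT (SD, n = 4 each). The 3 genes for subunit c encode the same mature protein with different import signals. Atp5g3 gave 76.2 ± 0.873% of their level per kb in KO and 77.9 ± 5.17% in WT. Atp5g2 gave 14.99 ± 0.818% in KO and 14.2 ± 4.57% in WT, and Atp5g1 8.82 ± 1.45% in KO and 7.93 ± 0.897% in WT. The sizes of these shares depend on exon models of 2181 bases for Atp5g3, 1675 for Atp5g2 and 4912 for Atp5g1. Not divided by length, Atp5g1 averaged 27.3 CPM over all libraries and Atp5g2 16.3 CPM. Atp5g2 was uneven among WT libraries, with 7.93 CPM in Sample_2914_WT and 16.9 to 22.4 CPM in the others.

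Some nuclear members share sequence with other annotated genes, and where these are copies elsewhere the same limit on read counting holds. Of the 86, 25 had a stretch of 75 bases or more at 99% identity or above with a transcript of another gene entry. The search left out only the member's own entry, so a match can be a gene that overlaps the member at the same place. Overlap of that kind is a different limit from a copy elsewhere, and the kinds were not counted apart. The longest match of Atp5o bore the symbol Atp5o itself. The share of the transcript so covered was 72.2% for Atp5l, 48.8% for Atp5o, 46.9% for Ndufs5 and 40.2% for Ndufb4. Levels of these genes are uncertain, and Atp5l and Ndufb4 were also the lowest subunits per kb of exon model in their complexes. The Atp5l model has 6443 bases against 544 in its longest coding transcript, and that of Ndufb4 1916 against 971. Their ranks depend on that length as well.

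The promoters of the nuclear members were read for the motifs of NRF1 and of GABP, an ETS-family factor, which are known activators of respiratory chain genes. RefSeq promoter windows of GRCm38.p6, from 250 bases before to 50 after the start, were at hand for 74 of the 86. On either strand, the NRF1 core TGCGCATGC was found in 6 of the 74 (8.11%), against 384 of 17418 other protein-coding genes (2.20%). The ETS core CCGGAAGT was found in 5 (6.76%), against 990 (5.68%). These motifs do not overlap each other in the windows printed. A match is a description of letters, not a binding site. Of members with a match, 3 described above are shown to place the motif: the highest complex III member and the complex V members with the largest positive fold change and with the uneven WT libraries. Capitals mark the match, which in each case is the reverse complement of the core as written, on the strand of the gene.
Uqcrh, chr4:116075054-116075101, minus strand: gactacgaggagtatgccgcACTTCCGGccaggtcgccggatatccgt
Atp5h, chr11:115419931-115419978, minus strand: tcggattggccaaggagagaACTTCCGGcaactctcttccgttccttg
Atp5g2, chr15:102671059-102671107, minus strand: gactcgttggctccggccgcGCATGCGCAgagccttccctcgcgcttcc

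Counted from the RefSeq start, the ETS match lies 11 bases before that of Uqcrh and 39 before that of Atp5h, and the NRF1 match 40 before that of Atp5g2. The GENCODE M21 models used for the levels start elsewhere, at 115419962 for Atp5h and 102672352 for Atp5g2, so both of those matches lie inside these gene models. The log2 fold changes of these genes were -0.04, 0.21 and 0.01, and none passed the test.

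Genes that act on the same machinery were read from 9 lists outside the rule, which held 224 genes found in the files. Of 215 tested, 0 passed with edgeR, 0 with DESeq2 and 0 with limma-voom, and 17 had an unadjusted p under 0.05, 7 higher and 10 lower in KO, against 18.0% of all genes in either direction. Genes of mitochondrial DNA replication, transcription and RNA handling had 0 of 38 past the test and a median log2 fold change of -0.04, with 2 at an unadjusted p under 0.05, both lower. Among them, Tfam, which packages mitochondrial DNA and starts its transcription, averaged 67.0 ± 3.63 CPM in KO libraries and 70.4 ± 8.51 CPM in WT libraries (log2 fold change -0.09). Polrmt, the mitochondrial RNA polymerase, had 0.03 and Lrpprc, which binds and stabilises mitochondrial mRNAs, -0.04. Ptcd3, a protein of the mitochondrial ribosome that supports translation, averaged 82.9 ± 2.55 CPM in KO libraries and 94.3 ± 5.85 CPM in WT libraries, with no overlap, and did not pass the test (log2 fold change -0.19, edgeR adjusted p = 0.0903).

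Mitochondrial ribosome genes had 0 of 77 past the test and a median of 0.04, and the citric acid cycle had 0 of 19 and a median of 0.01. Mitochondrial translation factors had 0 of 11 and a median of -0.11. The other lists also had 0 past the test: assembly genes of complexes II, IV and V had a median of -0.08 over 28 tested, complex I assembly genes outside the rule -0.03 over 8, complex III and carrier genes outside the rule -0.04 over 8, carriers and uncoupling proteins -0.04 over 12, and regulators 0.04 over 14. Of the 14 regulators, 8 lay above 0 and 6 below. Nrf1 had a log2 fold change of 0.10, and Gabpa, which encodes the DNA-binding subunit of GABP, 0.18 (edgeR adjusted p = 0.114). Esrra, a nuclear receptor active on the same genes, had 0.16, while Yy1 had -0.13 (edgeR adjusted p = 0.233). Cycs, the soluble cytochrome c between complexes III and IV, averaged 14.7 ± 1.99 CPM in KO libraries and 12.4 ± 2.60 CPM in WT libraries (0.28, edgeR adjusted p = 0.377), and Cyc1, the cytochrome c1 of complex III, had -0.03.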

How the data were processed

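A count table and a normalized table were deposited for 8 libraries, 4 KO and 4 WT. The count table holds whole-number read counts per gene as deposited by the authors. The normalized signal table, as deposited, holds each count divided by 1 size factor per library, for genes with at least 10 reads over the 8 libraries, and it served here to apply the rule for members. Per the submitters' processing notes, the build is mm10, and the tools listed without roles include DESeq2 1.22.2, R 3.5.3, CASAVA 1.8.2 and FastQC. Not given in the sources used here: aligner, counter, annotation and the handling of multiply matching reads. Per the labels' protocols, libraries were single reads of 75 bases from a kit that does not mark strand, made from cells the protocol calls splenic and the sample labels call spleen and lymph node. Columns of other samples numbered 0.

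Counts were tested with edgeR 4.0.16 in R 4.3.3 (robust quasi-likelihood F test, KO against WT, TMM scaling, filterByExpr), with p adjusted over all 11772 genes tested and a threshold of 0.05. Alternatives numbered 20 and included DESeq2 1.42.0 and limma 3.58.1. Fold changes are KO over WT. On simulated counts for this comparison (11604 genes tested), 92% of genes changed 1.5-fold were recovered and 6.80% of calls were unchanged genes, while mitochondrial changes here were smaller than 1.5-fold. Levels per kb used GENCODE M21 exon models, with all annotated exons of a gene merged. Nuclear copies were found with blastn 2.17.0 among M21 transcripts. Promoter windows came from RefSeq (GRCm38.p6). Replicates of a group differed beyond counting noise in every pair, with a chi-square per gene of 2.61 to 10.4, so each counted as 1. Intervals on counts cover counting error only. No exons of Satb1 were counted apart.

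The members, lists and rules were chosen with earlier results of these data known. Named were every mitochondrial member, members past the threshold in any setting, and per complex the highest gene per kb, the lowest p and the largest rise and fall, with paralogue sets and members too low to test. Ndufa10, Ndufv1, Atp5b, Sdhc, Atp5l and the genes named from the pathway lists were chosen after their values were seen or for their known roles. Genes most like the mitochondrial mRNAs across libraries are not given, because the groups separate on that level.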

Additional observations from a re-analysis of the deposited data

Results flagged for a closer look

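In each gene and each group of 4 libraries, a library was picked out where its gap to the nearest of the other 3 was a larger part of the group's range than Dixon's 95% critical value. Of 204 groups examined, 10 met this (4.90%), and chance gives about 1 in 20. In KO, Sample_2909_KO had 34.5 CPM of Ndufs8, an iron-sulphur subunit of complex I, against 25.3 to 26.4 CPM in the others, and 14.3 CPM of Ndufc1, an accessory subunit of complex I, against 8.18 to 9.11 CPM. Sample_2908_KO had 14.1 CPM of Ndufb6 (others 12.4 to 12.6 CPM), 43.9 CPM of Ndufb7 (others 49.5 to 50.5 CPM) and 0.548 CPM of mt-Tl1 (others 0.216 to 0.268 CPM). Sample_2907_KO had 0.244 CPM of mt-Te, from 2 reads, and the others 0.

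In WT, Sample_2914_WT had 58.5 CPM of Atp5j2, a complex V subunit, against 46.7 to 48.7 CPM in the others, 268 CPM of Sdha (others 277.0 to 277.7 CPM) and 0.981 CPM of mt-Te (others 0). Sample_2915_WT had 17.2 CPM of Ndufaf1, a complex I assembly factor, against 10.6 to 11.6 CPM in the others. Of these genes, the 7 nuclear ones did not pass the test of KO against WT with edgeR, and mt-Te and mt-Tl1 had too few reads for it.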

How the results depend on the processing

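mt-Nd5 and mt-Nd1 passed the threshold in all 20 alternatives, and mt-Cytb in all but the one that left out Sample_2911_WT and Sample_2914_WT together. That setting also lowered the count over all genes to 481, against 752, and gave -0.074 for Ndufaf8 and -0.020 for mt-Tc, both reversed in sign. The mitochondrial genes called were 3 in the main analysis, 5 with DESeq2, 9 with no count filter (which adds mt-Tl1 and mt-Ta, high in 1 library) and 3 to 5 with 1 library left out. Without Sample_2907_KO they were 5, with mt-Nd2 and mt-Nd4 added, and without Sample_2911_WT 5, with mt-Nd2 and mt-Nd6 added. mt-Nd6 also passed in the setting that lost mt-Cytb. Without 1 library the count over all genes ran from 562 to 836. Nuclear members called were 0 throughout, and no setting reversed any of the 7 mitochondrial mRNAs tested.

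Log2 fold changes near 0 changed sign. limma-voom gave 0.0062 for Ndufa2 and -0.0032 for Ndufaf8, and thinning to the smallest library gave 0.011 for Ndufb4. With 1 library left out the ranges were -0.018 to 0.11 for Cox6a1, -0.087 to 0.027 for Ndufa2, -0.12 to 0.27 for Ndufaf8, -0.51 to 0.0029 for Ndufb4, -0.086 to 0.14 for mt-Rnr1, -0.30 to 0.0059 for mt-Rnr2, -0.053 to 0.20 for mt-Tc and -0.020 to 0.23 for mt-Tp. The cause was not tested. No paired analysis was possible because the groups share no sample numbers. Depth limits the rRNAs less than the spread among libraries, and limits the low tRNAs, Cox6b2 and Cox7a1, which had too few reads to test.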
